A study of Rattus with 8 samples.

Results

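The miRNAs described here are those of the miR-23, miR-24 and miR-27 clusters in the rat hippocampus. They were taken by name, as every listed mature miRNA called rno-miR-23a, rno-miR-23b, rno-miR-24, rno-miR-27a or rno-miR-27b with any locus number and arm, and 9 of the 615 mature miRNAs in the count table met this rule. Of these, 6 were the main subjects (rno-miR-23a-3p, rno-miR-23b-3p, rno-miR-24-3p, rno-miR-24-2-5p, rno-miR-27a-3p and rno-miR-27b-3p), and 3 were scarce products of the opposite arm (rno-miR-23b-5p, rno-miR-27a-5p and rno-miR-27b-5p). Small RNA was sequenced from whole hippocampus of male, young adult Sprague-Dawley rats, in 4 control and 4 CPB/DHCA libraries. CPB is cardiopulmonary bypass and DHCA is deep hypothermic circulatory arrest, in which the body is cooled and blood flow is stopped. The CPB/DHCA group had 5 min of bypass at normal temperature, 30 min of cooling, 30 min of arrest and 60 min of rewarming. Control rats had a sham operation: they were put under sevoflurane, ventilated through a tracheal tube and had catheters placed without going on bypass or being cooled. The comparison thus covers bypass, cooling and arrest together. Tissue was taken after 24 h in both groups.

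A miRNA is cut from a hairpin precursor, and either arm of the hairpin can give a mature product, named 5p or 3p. The mature miRNA guides Argonaute to mRNAs that pair with its seed, bases 2 to 8 from the 5′ end, so miRNAs that share a seed share most of their predicted targets. The miR-23, miR-27 and miR-24 hairpins lie side by side in a pair of paralogous clusters, and each cluster is transcribed as a single primary RNA. One cluster holds mir-23a, mir-27a and mir-24-2, and the other holds mir-23b, mir-27b and mir-24-1. The clusters are best known from endothelial cells and angiogenesis. In other systems miR-23a is known to repress glutaminase, the miR-27 family to repress the nuclear receptor PPARG, and miR-24 to repress genes of the cell cycle, while in the mouse brain members have been tied to mRNAs of the apoptosis machinery.

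The sequences are printed as deposited, with the paralogs next to each other and the seed in capitals.
rno-miR-23a-3p: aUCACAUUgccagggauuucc
rno-miR-23b-3p: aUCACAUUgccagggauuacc
rno-miR-27a-3p: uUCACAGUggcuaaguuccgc
rno-miR-27b-3p: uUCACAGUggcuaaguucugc
rno-miR-24-3p: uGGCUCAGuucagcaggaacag
predicted 20-base form of miR-24-3p: uGGCUCAGuucagcaggaac
rno-miR-24-2-5p: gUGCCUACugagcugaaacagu
rno-miR-128-3p: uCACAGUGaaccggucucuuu

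miR-23a-3p and miR-23b-3p have the same seed and differ at 1 of 21 bases, U19A counted from the 5′ end with miR-23a-3p as the reference. miR-27a-3p and miR-27b-3p also share their seed and differ at 1 of 21 bases, C19U with miR-27a-3p as the reference. The division of tags between the paralogs therefore rests on a single base near the 3′ end, and tags cut short of it or carrying an error there could have been given to either paralog. The alignment allowed up to 1 mismatch, so intact tags also lay within this limit of the other paralog. How such tags were assigned is not stated. How much this moved the counts was not tested. The seeds of miR-23 and miR-27 differ at 1 base, the next to last of the seed. miR-128-3p, an abundant neuronal miRNA shown for comparison, holds the seed letters of miR-27 at its bases 1 to 7, an offset of 1 base, and has no seed in common with any member. miR-24-2-5p comes from the arm opposite to miR-24-3p and shares no seed with it.

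In the rat assembly GRCr8 the order along chromosome 17 is Mir3074, Mir24-1, Mir27b and Mir23b, all of them within Aopep, a protein-coding gene for an aminopeptidase. On chromosome 19 the order is Mir24-2, Mir27a and Mir23a, with no protein-coding gene spanning them. The authors' processing used the rn6 build, so only the names and neighbours are given here. miR-24-3p is made from both mir-24-1 and mir-24-2, and its tags cannot be divided between the clusters. miR-24-2-5p is made from mir-24-2 alone and so belongs to the miR-23a cluster. No line was listed for miR-24-1-5p, miR-23a-5p or miR-3074.

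The libraries held 620133 to 772840 miRNA tags in controls and 508574 to 672378 after CPB/DHCA. Levels are given as tags per 1000000 tags with TMM scaling (CPM), and a single tag was worth 1.197 to 2.003 CPM. Since these are tags of whole mature miRNAs of near-equal length, no length correction was made. Cells of the table left empty hold at most 1 tag and were taken as 0. A count of exactly 0 allows up to 3 tags, or 3.59 to 6.01 CPM depending on the library, and the limit of an empty cell is somewhat higher. The neuronal markers (5 of 5 listed) were abundant in every library, as hippocampus would have, with a summed level of 233770 to 336523 CPM in controls and 183548 to 370751 CPM after CPB/DHCA. CPB/DHCA 3 stood apart, with the lowest summed level of neuronal miRNAs and the highest of the 4 oligodendrocyte miRNAs (23252 CPM, against 5361 to 12308 CPM in the other CPB/DHCA libraries and 6498 to 8118 CPM in controls). Control 2 had the highest summed level of the 6 smooth muscle and fibroblast miRNAs, 7469 CPM against 2413 to 3893 CPM in the other 7 libraries.

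The 2 endothelial markers, miR-126a-3p and miR-126a-5p, were present in all libraries, with a summed level of 2105 to 2633 CPM in controls and 2036 to 2487 CPM after CPB/DHCA, and 0 of the 2 were called changed. Called here means a fold of at least 1.5 with an unadjusted edgeR p of at most 0.05, which 7.28% of all 467 miRNAs tested met in either direction. The erythrocyte markers were low, at 96.9 to 136 CPM in controls and 104 to 190 CPM after CPB/DHCA, and 3 of 4 were called higher. None of these 3 had an edgeR adjusted p under 0.05. The marker not called had a log2 fold change of -0.13, and the summed levels overlapped between the groups. Leukocyte and microglial markers (5 listed) summed to 487 to 706 CPM and 524 to 626 CPM, with 0 called. Of the oligodendrocyte markers 1 of 4 was called higher, and of the smooth muscle and fibroblast markers 1 of 5 tested was called lower. None of the markers on these lists was at 0 over all libraries. The part of these cell types in the results below was not tested. In bulk tissue, fewer cells of a type and less of an RNA per cell cannot be told apart.

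The members together took 2.28% to 2.44% of the tags in controls and 2.12% to 3.59% after CPB/DHCA, where the highest share was in CPB/DHCA 3. Nearly all of these tags were miR-27b-3p, which made up 88.3% to 91.0% of the members' tags in controls and 88.6% to 93.5% after CPB/DHCA. By mean CPM over all 8 libraries miR-27b-3p ranked 10 of 615, miR-23a-3p 80, miR-23b-3p 89, miR-27a-3p 101 and miR-24-3p 152. The star arms, the less abundant products of a hairpin, were far lower, with miR-24-2-5p at rank 350, miR-23b-5p at 371, miR-27a-5p at 432 and miR-27b-5p at 518. The neighbours miR-23a-3p, miR-23b-3p and miR-27a-3p overlapped in their ranges of CPM over the libraries, as did miR-24-2-5p and miR-23b-5p, whereas miR-24-3p as listed lay below miR-27a-3p and above miR-24-2-5p in every library. The shares and ranks above leave out the predicted 20-base form of miR-24-3p, described below. Summed with that form, miR-24 stood at 1071 to 1878 CPM, above miR-27a-3p in every library.

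**Figure D1:**
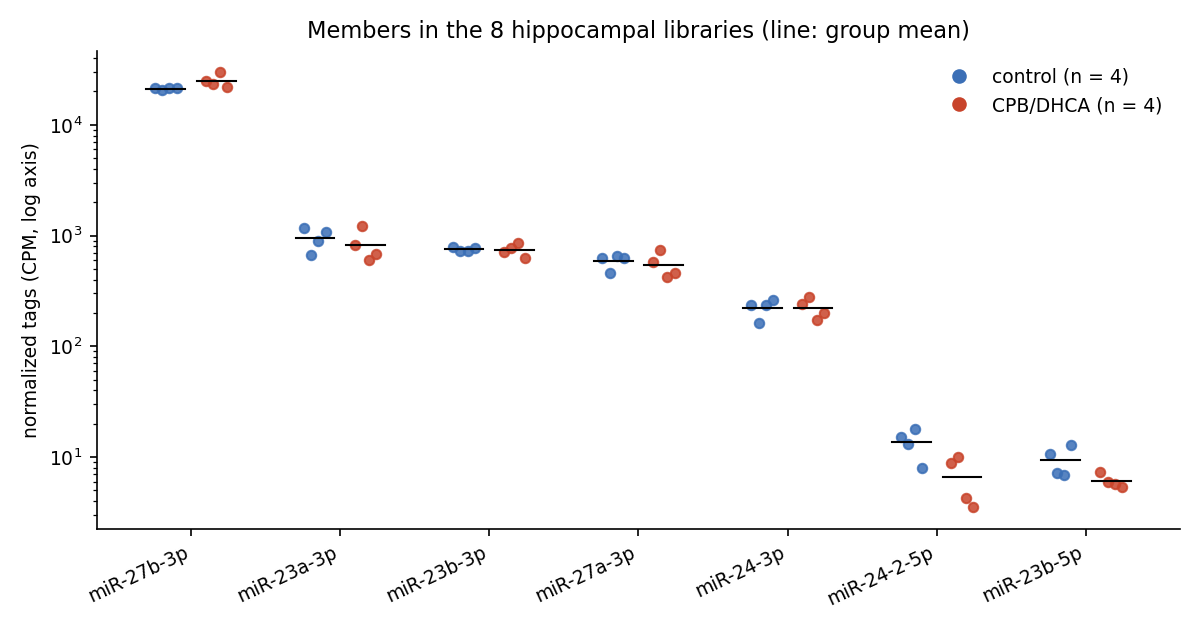
Level of 7 members (CPM with TMM scaling, log axis) in the 4 control and the 4 CPB/DHCA libraries, with a point per library and a line at the group mean (miR-27a-5p and miR-27b-5p, with empty cells, are not drawn). miR-27b-3p lies at or above 20483 CPM in all 8 libraries, the other 3p members lie between 163 and 1216 CPM, and the 5p members lie at or below 18.0 CPM.

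miR-27b-3p, the most abundant member, was at 21507, 20483, 21402 and 21459 CPM in controls 1 to 4 and at 24882, 23376, 29688 and 21802 CPM in CPB/DHCA 1 to 4. The means were 21213 ± 488 CPM and 24937 ± 3408 CPM (SD, n = 4). All 4 CPB/DHCA libraries lay above all 4 control libraries, CPB/DHCA 4 by a narrow margin, and CPB/DHCA 3 was the highest. The log2 fold change of CPB/DHCA over control was 0.23 (SE 0.11, 95% interval -0.01 to 0.48, edgeR quasi-likelihood test, adjusted p = 0.56), a fold of 1.18 (0.991 to 1.39), below the fold of 1.5 that the study set as its threshold. Before adjustment edgeR gave p = 0.060, and the exact two-sided permutation test gave p = 0.029, the smallest that 4 against 4 libraries can give. miR-27b-3p was the only one of the 8 members tested whose groups did not overlap, beside 4.71% of the 467 miRNAs tested that showed such a separation.

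This separation depended on the scaling. With libraries scaled by their listed totals alone, CPB/DHCA 4 fell to 19416 CPM, below all 4 control libraries (20415 to 22146 CPM), and 3 of the 4 CPB/DHCA libraries stayed above all controls (exact permutation p = 0.26). Scaled by the aligned totals of the authors, again 3 of 4 lay above (exact permutation p = 0.23), while with DESeq2's median-ratio factors all 4 did. Without CPB/DHCA 3, the library with low neuronal and high oligodendrocyte miRNAs, the log2 fold change was 0.14 (edgeR adjusted p = 0.87).

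miR-27a-3p, the paralog with the same seed, was at 630, 455, 649 and 628 CPM in controls 1 to 4 and at 574, 737, 420 and 455 CPM in CPB/DHCA 1 to 4. Control 2 was the low library of its group, and the CPB/DHCA libraries spread from below to above the whole range of the controls. The means were 590 ± 90.9 and 547 ± 143.1 CPM (SD, n = 4), with a log2 fold change of -0.11 (SE 0.22, 95% interval -0.60 to 0.37, edgeR adjusted p = 0.99). On leaving out a library this ran from -0.29 (without CPB/DHCA 2) to -0.004 (without CPB/DHCA 3), with -0.20 without control 2. With both paralogs summed, as an alternative chosen after seeing the data, the miR-27 seed had 21800 ± 578 and 25480 ± 3350 CPM, and its log2 fold change of 0.23 (SE 0.11, 95% interval -0.01 to 0.47, edgeR adjusted p = 0.57) was that of miR-27b-3p, which carried nearly all of its tags. miR-128-3p, with the offset seed, stood at 83823 ± 27439 and 74421 ± 30185 CPM (log2 fold change -0.17, SE 0.35, edgeR adjusted p = 0.99).

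miR-23a-3p was at 1164, 670, 890 and 1069 CPM in controls 1 to 4 and at 822, 1216, 598 and 677 CPM in CPB/DHCA 1 to 4. Both groups were broad and overlapped, with control 2 lowest among controls and CPB/DHCA 2 highest of all. The means were 948 ± 217 and 828 ± 274 CPM (SD, n = 4), a log2 fold change of -0.20 (SE 0.26, 95% interval -0.77 to 0.38, edgeR adjusted p = 0.97). On leaving out a library it ran from -0.44 (without CPB/DHCA 2) to -0.07 (without CPB/DHCA 3), with -0.08 without control 1, -0.11 without CPB/DHCA 4 and -0.32 without control 2.

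miR-23b-3p varied little among the control libraries, at 787, 728, 720 and 775 CPM, and stood at 712, 771, 861 and 626 CPM in the CPB/DHCA libraries. The CPB/DHCA libraries lay on both sides of the controls. The means were 752 ± 33.7 and 742 ± 99.1 CPM (SD, n = 4), and the log2 fold change was -0.02 (SE 0.15, 95% interval -0.36 to 0.32, edgeR adjusted p = 1.00). The direction of this difference turned under 6 of 14 other settings. Summed over the seed, miR-23 stood at 1701 ± 247 and 1571 ± 294 CPM with a log2 fold change of -0.11 (SE 0.18, edgeR adjusted p = 0.99). A predicted miRNA of 17 bases that matches bases 2 to 18 of both miR-23 paralogs held 2 to 11 tags in each library. The main fit held it as a line of its own (log2 fold change -0.63, SE 0.47, edgeR adjusted p = 0.85), and it was left out of this sum. In an alternative its tags were divided between the paralogs in proportion to their own tags in each library. The log2 fold changes were then -0.198 for miR-23a-3p and -0.024 for miR-23b-3p.

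**Figure D2:**
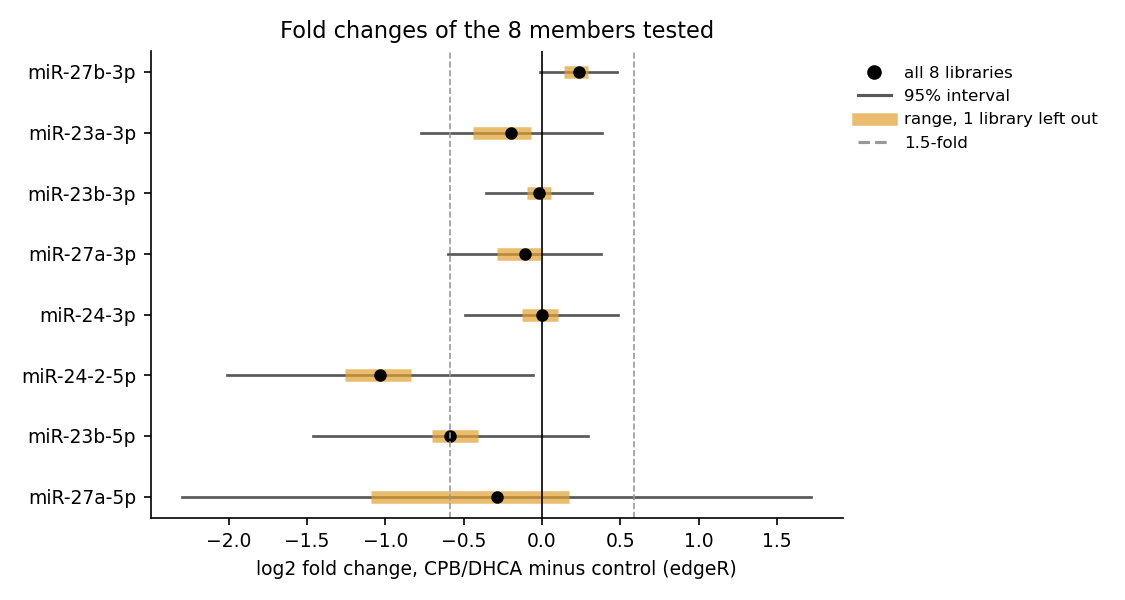
Log2 fold change of CPB/DHCA over control from edgeR for the 8 members tested, as points with 95% intervals as thin lines and the range on leaving out 1 library as thick bars, beside a solid line at 0 and dashed lines at 1.5-fold. miR-27b-3p is the only member above 0, and the interval of miR-24-2-5p (-2.01 to -0.06) is the only one that does not include 0.

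miR-24-3p was at 237, 163, 234 and 262 CPM in controls 1 to 4 and at 242, 278, 173 and 201 CPM in CPB/DHCA 1 to 4. The groups covered nearly the same range, and the means were 223.9 ± 42.7 and 223.4 ± 46.3 CPM (SD, n = 4). The log2 fold change was -0.003 (SE 0.22, 95% interval -0.49 to 0.49, edgeR adjusted p = 1.00), and its direction turned under 10 of 14 other settings.

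Most tags with this sequence were not counted under this name. A miRNA that the authors predicted on chromosome 19 of rn6, which is printed above and is identical to bases 1 to 20 of miR-24-3p, held more tags than miR-24-3p in every library and ranked 62 by mean CPM. Its tags numbered 898, 759, 961 and 899 in controls 1 to 4 and 994, 799, 884 and 646 in CPB/DHCA 1 to 4, beside 136 to 169 and then 113 to 165 tags of miR-24-3p itself. The 20-base form thus took 84.9% ± 0.305 of the tags of both forms in controls and 86.0% ± 1.34 after CPB/DHCA (SD, n = 4). The share was nearly constant in 7 libraries (84.6% to 85.8%) and highest in CPB/DHCA 3, at 88.0% (exact binomial 95% interval 85.8% to 89.9%, counting error only). In CPM the 20-base form had means of 1262 ± 240 and 1367 ± 201 and a log2 fold change of 0.12 (SE 0.19, edgeR adjusted p = 0.99). Summed over both forms miR-24 stood at 1486 ± 282 and 1590 ± 243 CPM (log2 fold change 0.10, SE 0.18, 95% interval -0.32 to 0.51, edgeR adjusted p = 0.99), so that at this seed the level read from the miR-24-3p line alone was well under that of the summed tags.

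**Figure D3:**
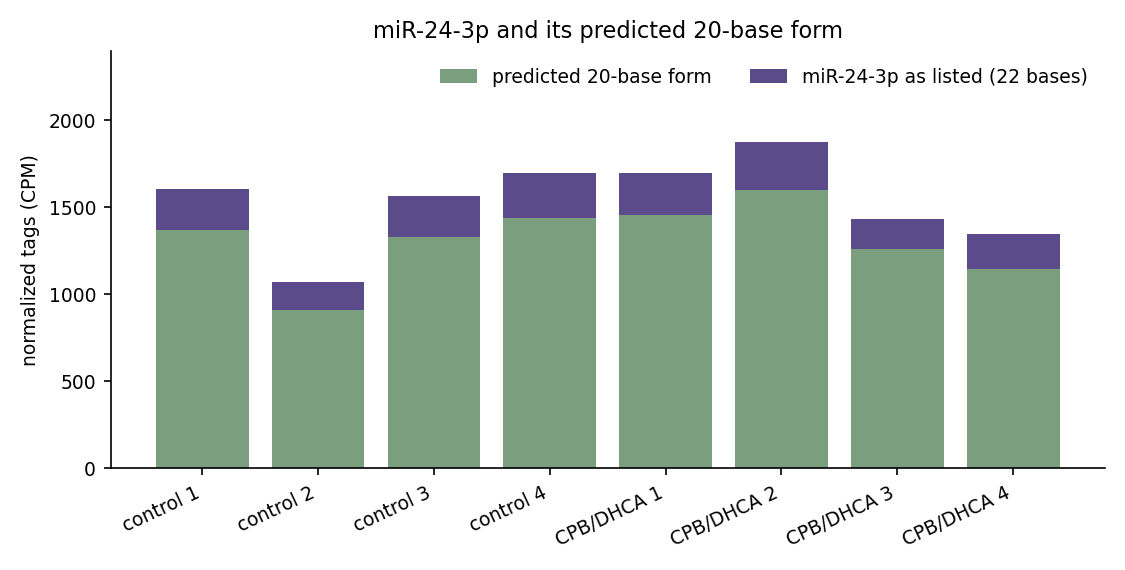
Level (CPM with TMM scaling) of miR-24-3p and of the predicted 20-base form with the same leading bases, stacked in a bar for each of the 8 libraries. The 20-base form is the taller, lower segment in every library, with 84.6% to 88.0% of the tags of both.

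miR-24-2-5p, the star arm of mir-24-2, was the only member called at the thresholds of the study (a fold of at least 1.5 with an unadjusted p of at most 0.05). It held 10, 11, 13 and 5 tags in controls 1 to 4 and 6, 5, 3 and 2 in CPB/DHCA 1 to 4, or 39 against 16 in all. In CPM these were 15.3, 13.2, 18.0 and 7.99, against 8.79, 10.0, 4.28 and 3.55. The groups overlapped, since control 4 lay below CPB/DHCA 1 and 2. The means were 13.6 ± 4.24 and 6.66 ± 3.22 CPM (SD, n = 4), and the log2 fold change was -1.03 (SE 0.44, 95% interval -2.01 to -0.06, edgeR adjusted p = 0.53). Before adjustment edgeR gave p = 0.040, and the exact permutation test gave p = 0.086. By counting error alone the control tags were 2.10 times as frequent (exact 95% interval 1.15 to 4.02).

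The 1 member called, of the 8 that passed the filter on low counts (12.5%), is to be read against 7.28% of all 467 miRNAs called at these thresholds in either direction, and 3.43% called lower. The count of all miRNAs called lower, 16, was 6 without control 1, 8 without CPB/DHCA 1 and 9 without control 3. With 8 members tested, a single call is near this background. At an adjusted p under 0.05, 0 of the 8 were called and 0.214% of all miRNAs. Members with an unadjusted p under 0.05 numbered 1 by edgeR and 0 by DESeq2 (adjusted p = 0.81 for miR-24-2-5p). The call on miR-24-2-5p was lost in 5 of the 8 fits that left out a library (without control 1, 2 or 3, or CPB/DHCA 3 or 4), and the log2 fold change was between -1.26 and -0.84 in all 8 fits. The median log2 fold change of the 8 members was -0.15, beside -0.05 for all miRNAs tested, with 7 members below 0 and 1 above. The 7 include miR-24-3p (-0.003), miR-23b-3p (-0.02) and miR-27a-5p (-0.29), whose signs turned in some alternatives, so no common direction is read from this count.

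The remaining star arms were close to the limit of detection. miR-23b-5p held 7, 6, 5 and 8 tags in controls 1 to 4 and 5, 3, 4 and 3 in CPB/DHCA 1 to 4, which gave 9.39 ± 2.83 and 6.09 ± 0.866 CPM (SD, n = 4). The groups overlapped, with a log2 fold change of -0.58 (SE 0.39, 95% interval -1.46 to 0.30, edgeR adjusted p = 0.85). miR-27a-5p held 3, 2, 3 and 2 tags and then 0, 0, 3 and 4, and its difference was not detectable at this depth (log2 fold change -0.29, SE 0.90, edgeR adjusted p = 1.00). miR-27b-5p was listed in control 4 with 3 tags and in CPB/DHCA 1 with 2 tags and in no other library, and it did not pass the filter. The 5p arm took 0.954% to 1.62% of the tags of mir-23b in controls and 0.659% to 1.02% after CPB/DHCA, while for mir-27b its share reached at most 0.0223%. miR-24-2-5p made up 0.933% of its own tags and those of both miR-24-3p forms in controls (exact binomial 95% interval 0.664% to 1.27%) and 0.413% after CPB/DHCA (0.236% to 0.669%), with tags pooled over 4 libraries and intervals for counting error only. By library this share was 0.468% to 1.21% in controls and 0.263% to 0.530% after CPB/DHCA, so the groups overlapped.

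Ratios between members within a library do not depend on the scaling between libraries, and 5 were tested. Tags of miR-27b-3p per tag of miR-23b-3p, its neighbour in the cluster within Aopep, were 27.3, 28.1, 29.7 and 27.7 in controls 1 to 4 and 35.0, 30.3, 34.5 and 34.8 in CPB/DHCA 1 to 4. The groups did not overlap, with means of 28.2 ± 1.07 and 33.6 ± 2.23 (SD, n = 4). The log2 difference was 0.25 (SE 0.056), a fold of 1.19, with an exact two-sided permutation p = 0.029 and 0.14 after adjustment by Benjamini-Hochberg over the 5 ratios, which misses the threshold. The difference was 0.24 without CPB/DHCA 3 and between 0.23 and 0.30 on leaving out any library.

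The star arm ratio, tags of miR-24-2-5p per tag of miR-24-3p, was 0.0645, 0.0809, 0.0769 and 0.0305 in controls 1 to 4 and 0.0364, 0.0360, 0.0248 and 0.0177 in CPB/DHCA 1 to 4. Control 4 lay within the range of the CPB/DHCA group, and the other 3 controls lay above it. The log2 difference was -0.99 (SE 0.37, exact permutation p = 0.086, adjusted over the 5 ratios p = 0.21). The other 3 ratios overlapped between the groups. Tags of miR-27a-3p per tag of miR-23a-3p, neighbours in the other cluster, ranged from 0.541 to 0.729 in controls and from 0.606 to 0.702 after CPB/DHCA, with a log2 difference of 0.09 (SE 0.11, exact permutation p = 0.51).

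**Figure D4:**
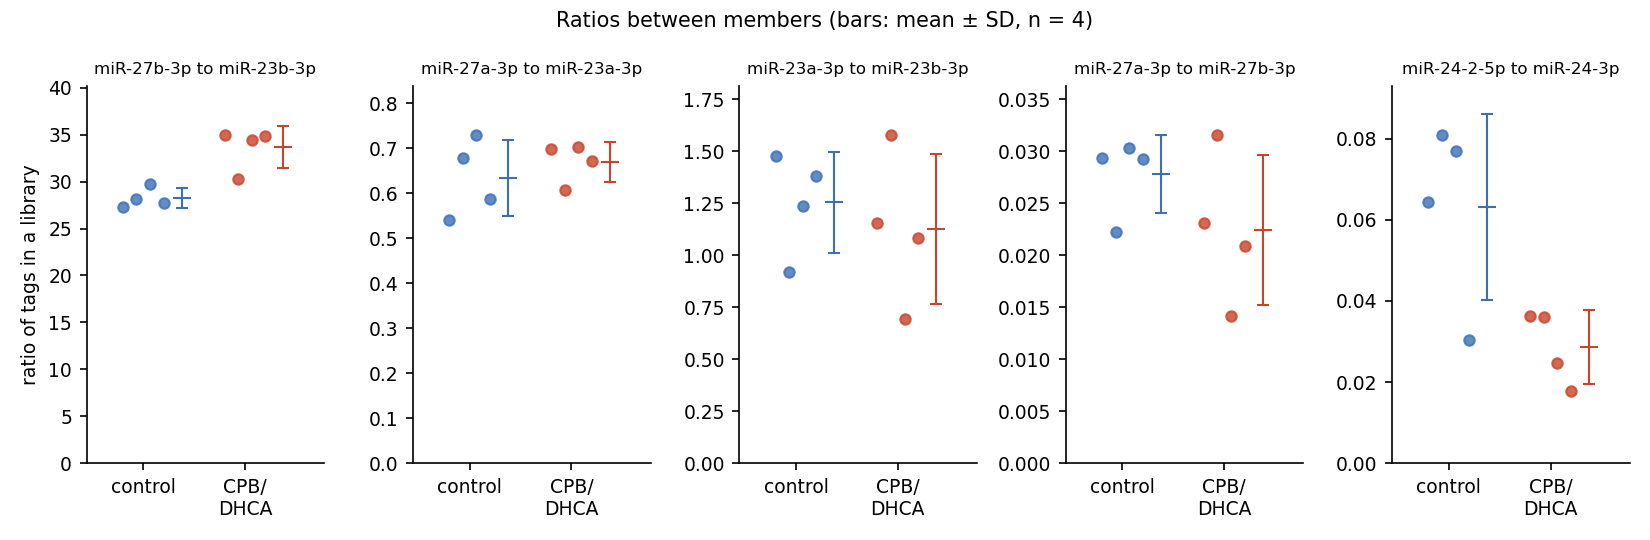
Ratios of tags between members in each library, in 5 panels with their own axis from 0, for control and CPB/DHCA, with the mean and SD of 4 libraries beside the points. The groups do not overlap for miR-27b-3p over miR-23b-3p (27.3 to 29.7 against 30.3 to 35.0) and overlap in the other panels.

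The paralog ratios varied more between the libraries than between the groups. Tags of miR-23a-3p per tag of miR-23b-3p were 1.48, 0.921, 1.24 and 1.38 in controls 1 to 4 and 1.15, 1.58, 0.695 and 1.08 in CPB/DHCA 1 to 4 (log2 difference -0.19, SE 0.29, exact permutation p = 0.54). Tags of miR-27a-3p per tag of miR-27b-3p were 0.0293, 0.0222, 0.0303 and 0.0293, and then 0.0231, 0.0315, 0.0141 and 0.0209 (log2 difference -0.36, SE 0.26, exact permutation p = 0.31). Without CPB/DHCA 3 the differences of these ratios were 0.02 and -0.15, and without CPB/DHCA 2 they were -0.37 and -0.54. Both ratios were highest in CPB/DHCA 2 and lowest in CPB/DHCA 3, and within the control group both were lowest in control 2. Thus miR-23a-3p exceeded miR-23b-3p in 6 of 8 libraries, whereas miR-27b-3p exceeded miR-27a-3p by a wide margin in all 8.

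Across the 8 libraries the log2 paralog ratios rose and fell together, a relation noticed after the values were seen. Pearson's r was 0.94 (exact permutation p = 0.0010) and Spearman's rho 0.90 (exact permutation p = 0.0046), and p takes no account of the choice of this relation, for which other measures across the libraries were also looked at. Without CPB/DHCA 2 and 3, the libraries farthest from the median, r was 0.81 (exact permutation p = 0.051) and rho 0.77 (exact permutation p = 0.10), so the relation rested in part on those libraries and no longer passed the threshold. With each group centred on its own mean, r was 0.97. The difference between the log2 paralog ratios equals that between the log2 ratios of the miR-23 and miR-27 neighbours in each cluster. This relation and the steadier neighbour ratios given below are therefore not separate observations. CPB/DHCA 3 and control 2 are also the libraries with the lowest summed neuronal miRNAs, and the part of cell make-up in this relation was not tested.

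**Figure D5:**
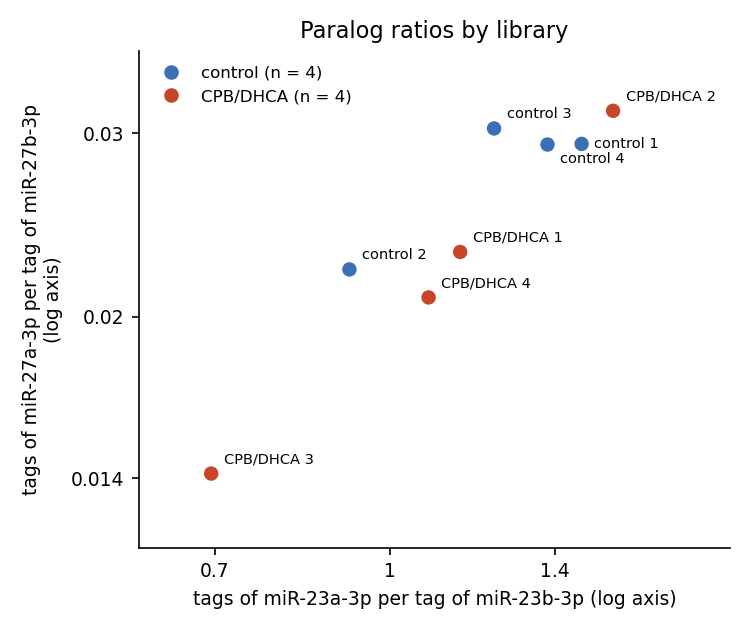
Tags of miR-27a-3p per tag of miR-27b-3p against tags of miR-23a-3p per tag of miR-23b-3p, both on log axes, with a labelled point for each of the 8 libraries. CPB/DHCA 2 lies highest on both axes and CPB/DHCA 3 lowest, with Pearson's r of 0.94 over all 8.

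The SD over libraries of the log2 ratio between members describes how closely they moved, over 15 pairs and with no test. Among pairs without miR-24-2-5p it was lowest for miR-24-3p with miR-27a-3p (0.11, where counting alone gives 0.14), followed by the neighbours miR-23a-3p with miR-27a-3p (0.15, counting 0.10) and miR-23b-3p with miR-27b-3p (0.15, counting 0.07). Paralogs that share a seed were farther apart, at 0.39 for miR-23a-3p with miR-23b-3p and 0.39 for miR-27a-3p with miR-27b-3p, where counting alone gives 0.09 and 0.08. These neighbours in a cluster thus kept a steadier ratio than the paralogs did. The widest such pair was miR-23a-3p with miR-27b-3p (0.48). Pairs with miR-24-2-5p ran from 0.61 to 0.86, of which counting alone gives 0.66 to 0.67.

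miR-24-3p comes from both clusters, and its ratios were steadier with the 3p members of the miR-23a cluster (0.11 with miR-27a-3p and 0.19 with miR-23a-3p) than with those of the miR-23b cluster (0.31 with miR-23b-3p and 0.36 with miR-27b-3p). With miR-24-2-5p, also of the miR-23a cluster but resting on few tags, the SD was 0.71, where counting alone gives 0.67. With the 20-base form summed in, which holds most of the tags, the SDs were 0.26 with miR-23a-3p, 0.18 with miR-27a-3p, 0.25 with miR-23b-3p and 0.28 with miR-27b-3p. The order by cluster seen with miR-24-3p alone was therefore not kept for miR-23a-3p and miR-23b-3p once both forms were counted.

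The miRNAs outside the clusters with the most similar profiles were ranked by the root mean square difference of centred log2 CPM over the 8 libraries, among 255 miRNAs with at least 10 counts in every library. miR-127-5p was nearest to miR-23a-3p (0.20), to miR-27a-3p (0.13) and to miR-24-3p (0.11), each of which was low in control 2 and CPB/DHCA 3. The next nearest were miR-485-5p for miR-23a-3p (0.23), miR-1843a-5p for miR-27a-3p (0.17) and, for miR-24-3p, its own 20-base form (0.12). For miR-27b-3p the nearest were miR-380-5p (0.08) and miR-103-3p (0.13), and for miR-23b-3p they were miR-382-5p (0.11) and a predicted miRNA of chromosome 11 (0.12). The distance from a flat profile was 0.13 for miR-23b-3p, so its matches were hardly nearer than no change at all, and it was 0.16 for miR-27b-3p, 0.26 for miR-24-3p, 0.28 for miR-27a-3p, 0.36 for miR-23a-3p and 0.69 for miR-24-2-5p. The profile of miR-24-2-5p, which rests on few tags, had its nearest matches at larger distances, miR-376c-3p (0.39) and miR-450b-5p (0.48). With libraries scaled by their listed totals the same names were found except that miR-146a-5p (0.47) took the place of miR-450b-5p.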

How the data were processed

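Small RNA of rat hippocampus was measured in 8 libraries, 4 control and 4 CPB/DHCA, all carrying 1 batch label. Per the labels and methods, the authors trimmed adapters with cutadapt 1.9.3 and aligned reads with Novoalign 3.02.12 to miRBase precursors and to precursors predicted from the pooled reads (rn6). Up to 1 mismatch was allowed. The deposited counts are raw tag counts per mature miRNA, over 669 lines for 615 names, each used once here. Of 4920 cells 1175 were empty, the smallest listed count was 2, and empty cells were set to 0. The deposited normalized score is the authors' TPM rounded to whole numbers, and it was used in alternatives only. The columns with the authors' own fold changes and p-values were not used.

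miRNAs with at least 10 counts in total and listed in at least 4 libraries were kept (467). The groups were compared in R 4.3.3 with edgeR 4.0.16 (TMM factors 0.891 to 1.13, quasi-likelihood test, Benjamini-Hochberg over all 467). The common biological coefficient of variation was 0.415. Single values and ratios of tags (0.5 added to each) were compared with an exact two-sided permutation test over 70 assignments, with a smallest p of 0.029, on log2(CPM + 1) for single values. Python 3.11.15, numpy 2.4.6 and scipy 1.17.1 were used for the rest.

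The labels do not say whether the 4 libraries of a group come from separate rats, and p measures the spread between them. No libraries within a group were duplicates of each other, since chi-square per degree of freedom between them was 12.0 to 202. Pairs across the groups were not checked in this way. Intervals at 95% for shares and rates are exact and cover counting error only. The members and marker lists were chosen with earlier results of these data known. Named in the text are all members, listed miRNAs that share a seed or sequence with one, miR-128-3p, the 2 endothelial markers, and the 2 nearest profiles of each of the main members. Alternatives were DESeq2 1.42.0, limma 3.58.1 on log2(TPM + 1) and log2(TPM + 10), other scalings and filters, miRBase names only, empty cells at 1 tag, the replicate block and each library left out. In a further alternative, predicted forms were added to the members they match. Summed seed groups and the 20-base form added to miR-24-3p were chosen after seeing the data. Patients' measurements were not analysed here.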

Additional observations from a re-analysis of the deposited data

Results flagged for a closer look

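In 26 groups of 4 values (levels and ratios of the members, in each group), a library stood apart from the other 3 of its group in 4. Chance gives about 1 in 20 for independent groups. These groups are not independent, since the ratios are built from the same tags as the levels. The 4 therefore cannot be set against that rate. In control 2, miR-27a-3p was at 455 CPM against 628 to 649 CPM in the other controls, and miR-27b-3p was at 20483 CPM against 21402 to 21507 CPM. The ratio of miR-27a-3p to miR-27b-3p in control 2 was also low, at 0.0222 against 0.0293 to 0.0303. In CPB/DHCA 2, the ratio of miR-27b-3p to miR-23b-3p was 30.3 against 34.5 to 35.0 in the other CPB/DHCA libraries. Control 2 also had the highest summed smooth muscle and fibroblast miRNAs, whose part in these values was not tested.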

How the results depend on the processing

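The log2 fold changes of miR-23a-3p, miR-27a-3p, miR-23b-5p and miR-27b-3p kept their sign and stayed short of the call in every alternative that tested them. The filter of 10 counts in 4 libraries removed miR-23b-5p, miR-24-2-5p and miR-27a-5p, which have no value there. The other settings put miR-27b-3p between 0.22 and 0.29, and leaving out a library between 0.14 and 0.29 (adjusted p by edgeR, DESeq2 and limma at least 0.449 throughout). Its unadjusted p ran from 0.021 (edgeR, at least 10 counts in 4 libraries) to 0.165 (limma), so it fell under 0.05 in some settings and not in others.

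miR-23b-3p turned to 0.031 with median-ratio factors, 0.029 with aligned totals, 0.040 with at least 10 counts in 4 libraries, 0.019 with miRBase names only, 0.006 with empty cells at 1 tag and 0.032 by DESeq2, and ranged from -0.099 to 0.055 on leaving out a library. miR-24-3p turned to 0.044, 0.028, 0.055, 0.026, 0.019 and 0.044 in the same order, to 0.003 with listed totals, 0.097 with its predicted form added, and 0.011 and 0.010 by limma on log2(TPM + 1) and log2(TPM + 10), with -0.125 to 0.102 on leaving out a library. miR-27a-5p turned to 0.082 with empty cells at 1 tag and ranged from -1.095 to 0.171. The cause was not tested.

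miR-24-2-5p lost its call with the replicate block (-1.049), by DESeq2 (-1.005) and by limma on log2(TPM + 10) (-0.201, a pseudocount that shrinks the fold of low values), and ranged from -1.256 to -0.837 on leaving out a library. Its adjusted p by edgeR, DESeq2 and limma ran from 0.42 to 0.83 over the alternatives that tested it. The replicate numbers were not used as pairs in the main fit. Correlations of same-numbered libraries, on deviations from the group means over 212 miRNAs, were 0.627, 0.021, -0.056 and 0.893. They were thus high for numbers 1 and 4 and near 0 for 2 and 3, and do not settle whether the numbers mark pairs. The block changed no other member's call.

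The count of all miRNAs past both thresholds was 34, fell to 19 with miRBase names only (fewer were tested) and to 12 by limma on log2(TPM + 10), and ranged from 18 (without control 3) to 44 (without control 4), with 21 without control 1. Those called lower numbered 16, with 6 to 19 on leaving out a library. The 5 ratios kept their direction under all other settings. On leaving out a library, that of miR-23a-3p to miR-23b-3p ranged from -0.372 to 0.022 (turned without CPB/DHCA 3), of miR-27a-3p to miR-27b-3p from -0.539 to -0.154 and of miR-27a-3p to miR-23a-3p from 0.013 (without control 1) to 0.157. Depth limits the 5p arms, which rest on 2 to 13 tags in a library where listed.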
